A study of Mus musculus with 2 samples.

Results

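The transcripts described here are cDNA clones, for which no gene name was at hand, that were higher in the hippocampus of mice fed astaxanthin. They were read by 147 probes, each for a different accession, out of 41174 mouse probes on the array. A clone was taken when its accession begins with AK and a number, when its spot was well above background in both dyes on both arrays, and when the ratio of astaxanthin (ASX) RNA to control RNA was at least 1.4 on each array. The clones were chosen by these ratios, taken from the scanner's processed signals (background-subtracted and dye-normalized brightness), so these ratios and every count made from them are descriptions, and no test was made of them. Of 10713 probes for AK clones, 6156 (57.5%) were well above background in all 4 readings and are called measured below; 30074 of all 41174 probes (73.0%) were. The 147 clones are thus 2.39% of the measured AK probes, and the same rule took 0.602% of all measured probes.

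AK is the accession prefix under which the DNA Data Bank of Japan registered full-length cDNA clones, and most mouse AK entries come from the RIKEN collection that the FANTOM consortium annotated. That collection was built from many tissues and stages to reach rare RNAs. It holds copies of known mRNAs, long non-coding RNAs with no long reading frame, and clones that start within introns or 3' ends of genes. An array probe for such a clone reads whatever RNA carries the stretch the probe was made for, which need not be a separate gene. The files give no sequence for these probes, so the clones are given by accession only. The RefSeq table used here holds only 10 AK numbers as gene symbols or synonyms. Matching by number named none (0) of the 147 and 2 of all 10713 AK probes. With few numbers listed, that match does not show whether the clones belong to named genes.

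The RNA came from 2 groups of male C57BL/6J mice, which were 11 weeks of age and 26 to 28 g. The ASX group ate powdered chow holding 0.5% by weight of a powder with 2% astaxanthin, a red carotenoid of the alga Haematococcus pluvialis, for 4 weeks that followed 1 week on plain chow. The control group ate the same chow with placebo powder, labelled 0%. Total RNA of both groups was hybridised on 2 arrays of 2 colours each, with ASX in Cy5 on array 1 and in Cy3 on array 2. The design names 4 mice per diet, but no label says how their RNA was joined, so both arrays were taken to carry one ASX RNA and one control RNA with the dyes exchanged. The diet comparison then has 1 replicate, and the number of arrays limits its precision. The SDs given below are between the 2 arrays and are technical. In such bulk RNA, a change in the number of cells of one type and a change in RNA per cell cannot be told apart.

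Most of the 147 clones stood just past the threshold, and 8 had a mean of at least 2-fold. The median fold was 1.57 on array 1, where the highest was 2.99. It was 1.52 on array 2, where the highest was 2.64. The mean of the arrays had a median log2 ratio of 0.65, and the middle part of the clones, between the quartiles, lay between 0.58 and 0.74. At least 1.5-fold on both arrays were 57 of the 147 (57 of 6156 measured AK probes), where 0.243% of all measured probes were. At least 2-fold on both were 3 of the 6156, AK005009, AK038048 and AK048920, where 0.0299% of all measured probes were. The ratio was larger on array 1 for 85 clones, and the arrays lay within 0.2 of each other on the log2 scale for 101.

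**Figure D1:**
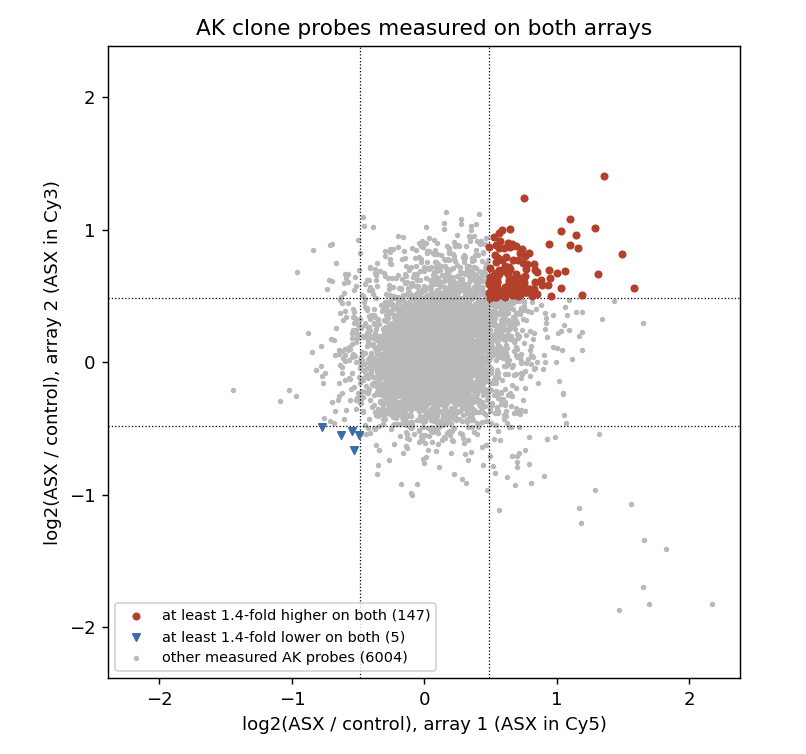
Each point is 1 of 6156 measured AK clone probes, with log2(ASX / control) on array 1 (ASX in Cy5) across and on array 2 (ASX in Cy3) up, from processed signals. Dotted lines mark 1.4-fold; the 147 clones fill the upper right corner and 5 probes lie in the lower left one.

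AK005009 had the largest mean ratio. Its processed signal was 120 and 131 in ASX RNA on arrays 1 and 2, against 47.0 and 49.7 in control RNA. Both ASX readings were above both control readings, and the mean was 2.60-fold (log2 1.38, SD 0.032). AK037888 had 80.1 and 81.7 in ASX RNA, against 28.5 and 46.5 in control RNA, a mean of 2.22-fold (log2 1.15, SD 0.48). Its ASX readings were nearly equal, and the arrays differed through the control reading. AK038048 was among the dimmest of the leading clones, with 31.3 and 36.1 in ASX RNA, against 12.8 and 17.9 in control RNA. AK048920 was the brightest of the leading 12, with 216 and 169 in ASX RNA, against 101 and 79.9 in control RNA. It was 2.15-fold higher on array 1 and 2.11-fold on array 2 (SD 0.017).

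AK042617 had the widest gap between the arrays of all 147. It read 37.3 and 21.2 in ASX RNA, against 12.5 and 14.4 in control RNA, so that it was 2.99-fold higher on array 1 and 1.47-fold on array 2. The 3 largest gaps were those of AK042617, AK081302 and AK037888, and each was larger on array 1. AK081302 was 2.28-fold and 1.42-fold higher. At the other end, AK035121 was 1.42-fold higher on both arrays, AK082313 was 1.43-fold on both, and AK037691 was 1.68-fold on both. These 3 had SDs of 0.0028 to 0.0030.

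The rest of the 12 largest mean ratios lay close together. AK004108 (74.3 and 68.8 in ASX RNA, against 33.6 and 35.3 in control RNA) had a mean of 2.07-fold. AK084671 (140 and 114 in ASX RNA, against 62.7 and 62.5 in control RNA) had a mean of 2.02-fold. AK043797 (43.7 and 38.0 in ASX RNA, against 21.4 and 19.1 in control RNA) had a mean of 2.01-fold. AK038833, AK035621, AK054167 and AK081617 followed with mean folds of 1.99, 1.99, 1.98 and 1.89. In all 12, both ASX readings lay above both control readings. AK038833 was the only one of these 4 with the larger ratio on array 2, at 2.36-fold against 1.69-fold on array 1.

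**Figure D2:**
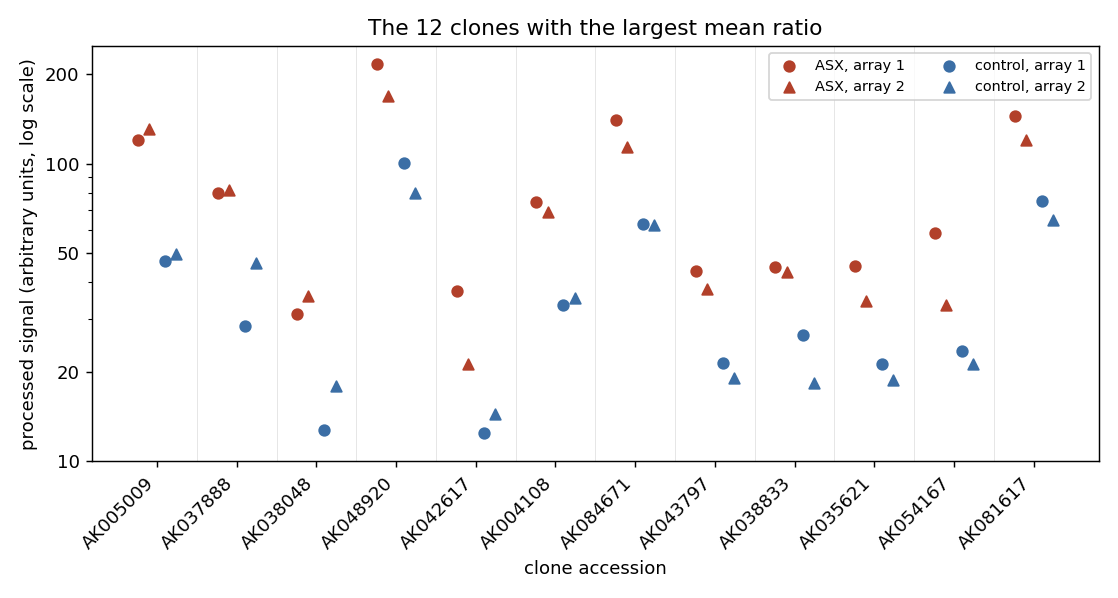
Processed signal on a log scale of the 12 clones with the largest mean ratio, with ASX in red, left, and control in blue, right, in each column; circles are array 1 and triangles array 2. For AK005009 the ASX points stand at 120 and 131 and the control points at 47.0 and 49.7, and in every column both red points lie above both blue points.

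Bright clones were few. AK090111 was the brightest, with 20222 and 18638 in ASX RNA, against 10962 and 12146 in control RNA, which is 1.84-fold and 1.53-fold. AK020483 came next and read much alike, with 19190 and 17222 in ASX RNA, against 10037 and 11497 in control RNA (1.91-fold and 1.498-fold). Whether these probes read the same RNA was not tested, since no probe sequence is in the files used here. The third was AK080997 with 3629 and 3266, against 2287 and 2143, which is 1.59-fold and 1.52-fold. Each of these 3 had ASX readings above both control readings.

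The median brightness of the 147 clones, the mean log2 processed signal over the 4 readings, was 6.41, against 6.69 over the other 6009 measured AK probes, 9.17 over probes for RefSeq mRNAs and 8.44 over all measured probes. Of the 147, 23 (15.6%) were brighter than the median of all measured probes, against 26.0% of all measured AK probes. The unprocessed spot signal of the clones in control RNA on array 2 was 2.48 times its local background in the median, and at the lowest 1.39 times. None (0) of the 147 spots was saturated or called non-uniform, and each clone of the set had 1 spot per array.

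The deposited p-value of a spot's log ratio, from the scanner software's error model, covers technical error of that spot and not the diet. It was under 0.05 for 141 of the 147 clones on array 1 and for 134 on array 2, and for 12.4% and 11.7% of all measured AK probes. The smallest values on array 1 and array 2 were 1.29e-08 and 2.58e-08. Because the ratio chose the clones, these counts show the size of the technical error beside the ratio and no more.

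The clones just inside and just outside the threshold hardly differed. AK082465 entered with 1.41-fold on array 1 and 1.402-fold on array 2, AK049941 with 1.402 and 1.51, and AK048651 with 1.45 and 1.403. Just outside lay AK086746 with 1.398 and 1.43, AK078716 with 1.501 and 1.396, and AK029229 with 1.395 and 1.56. The gap between both sides was under the SD between arrays of the typical clone, whose median was 0.08 on the log2 scale.

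With processed signals few AK probes went the other way. Spike-in scaling, which lowers every ratio, gave 412 of 6156 AK probes lower and 7 higher. For RefSeq mRNA probes it gave 1749 of 19498 lower and 4 higher. At most 1/1.4 of control on both arrays with processed signals were 5 of 6156 (0.0812%), where 0.14% of all measured probes were. AK145182 read 17.7 and 18.4 in ASX RNA, against 30.2 and 25.9 in control RNA, a mean ratio of 0.646. AK014119, AK013898 and AK045275 were similarly dim, with mean ratios of 0.661, 0.666 and 0.690. AK029300 was brighter, with 161 and 139 in ASX RNA, against 227 and 203 in control RNA, a mean ratio of 0.696. A further 56 of 6156 AK probes were 1.4-fold apart in the direction of the dye on both arrays, where 0.529% of all measured probes were. Of these, 36 (0.585% of measured AK probes) were brighter in Cy5, where 0.376% of all measured probes were. The other 20 (0.325%) were brighter in Cy3, where 0.153% were. Both AK shares were thus above those of all measured probes.

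The array shows how often a high ratio came back after the dyes were exchanged. On array 1 alone, 536 AK probes (8.71%) were at least 1.4-fold higher in ASX RNA, where 3.15% of all measured probes were. Of the 536, 147 (27.4%) were so on array 2 as well, 405 (75.6%) were above 1 there, and 36 (6.72%) were at least 1.4-fold lower. On array 2 alone, 566 were higher, where 2.79% of all measured probes were, and 439 of them (77.6%) were above 1 on array 1. For RefSeq mRNA probes, 247 (1.27%) were higher on array 1. Of the 247, 13 (5.26%) were higher on array 2 and 57 (23.1%) were at least 1.4-fold lower there. On array 2 alone, 172 RefSeq mRNA probes (0.882%) were higher, against 9.19% of AK probes. The returning shares of 27.4% and 5.26% thus start from unlike base shares and do not rank the classes by repeatability. The arrays share both RNA samples, so these shares describe technical repeatability.

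The whole class of AK probes, and not the 147 alone, stood slightly on the ASX side. Its median log2 ratio was 0.07 on each array, while that of 19498 measured RefSeq mRNA probes was -0.028 on array 1 and -0.017 on array 2. This held with each array centred on its median and with normexp and loess, but with scaling on spike-in RNAs, which moves the median of all probes to -0.40, the AK median was -0.34 and the RefSeq mRNA median -0.42. Above 1 on both arrays were 39.1% of measured AK probes and 15.8% of RefSeq mRNA probes, against 21.7% of all. Across probes, which are not independent, the Pearson correlation between the turned arrays was 0.133 for AK probes and -0.131 for RefSeq mRNA probes. These points share 2 arrays and 1 pair of RNA samples, and no p is given.

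By accession class, the same rule took 13 of 19498 RefSeq mRNA probes as higher (0.0667%) and 32 as lower (0.164%), and with spike-in scaling 4 as higher and 1749 as lower. Consensus sequences with TC numbers gave 6 of 387 (1.55%) higher and 0 lower, and those with NAP numbers 5 of 530 (0.943%) and 0. Clones with BC accessions, a collection made of full-length coding sequences, gave 1 higher and 1 lower of 1055, and their median log2 ratio was -0.0062 on array 1 and 0.0048 on array 2. AK probes made up 20.5% of the measured probes and 81.2% of the 181 that were higher. The named long non-coding RNAs that were listed for comparison, such as Malat1 and Meg3, could not be set beside the clones, because none (0) of the 12 was matched to a probe by accession.

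**Figure D3:**
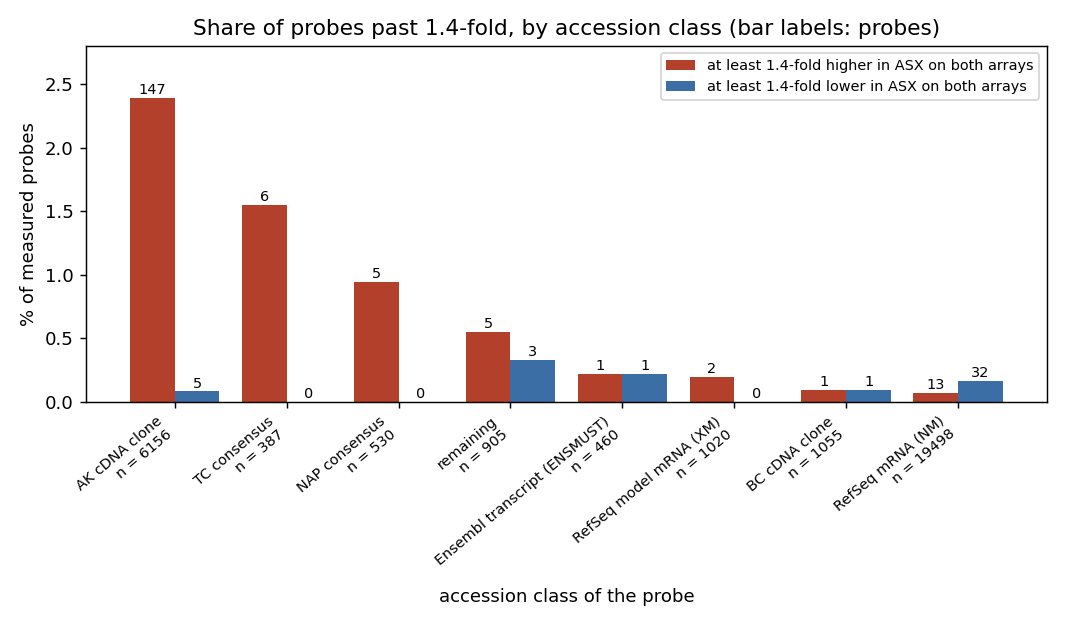
Bars give the percentage of measured probes at least 1.4-fold higher (red, left) and at least 1.4-fold lower (blue, right) in ASX RNA on both arrays, by class of accession, with the number of probes above each bar and measured probes under it. AK clones reach 2.39% higher and 0.0812% lower, and RefSeq mRNAs 0.0667% and 0.164%, from processed signals; with spike-in scaling the counts are 7 higher and 412 lower for AK clones and 4 higher and 1749 lower for RefSeq mRNAs.

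AK probes are dimmer than mRNA probes, so the classes were also set side by side within 5 bins of brightness that hold equal numbers of measured probes. In the dimmest bin, 60 of 2198 AK probes (2.73%) were higher, against 7 of 2750 RefSeq mRNA probes (0.255%). In the next 2 bins the AK shares were 2.89% and 2.48%, against 0.121% and 0.025% for RefSeq mRNAs. In the 2 brightest bins the AK shares were 0.867% (6 of 692) and 0.739% (3 of 406), against 0.0219% (1 of 4566) and 0 of 4878. The AK share was thus the larger one in each bin with processed signals. Most AK calls in the dye direction came from the dimmest bin. There, beside the 60 higher, 30 AK probes (1.36%) were 1.4-fold brighter in Cy5 on both arrays and 20 (0.91%) in Cy3. For RefSeq mRNA probes of that bin these counts were 43 (1.56%) and 19 (0.691%). In the next bin 6 AK probes were brighter in Cy5 and 0 in Cy3, beside 50 higher. In each brighter bin 0 AK probes were called in the dye direction. The correlation between the arrays over AK probes was -0.0063 in the dimmest bin, 0.308 in the next, 0.438 in the middle one, 0.0711 in the fourth and -0.118 in the brightest.

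**Figure D4:**
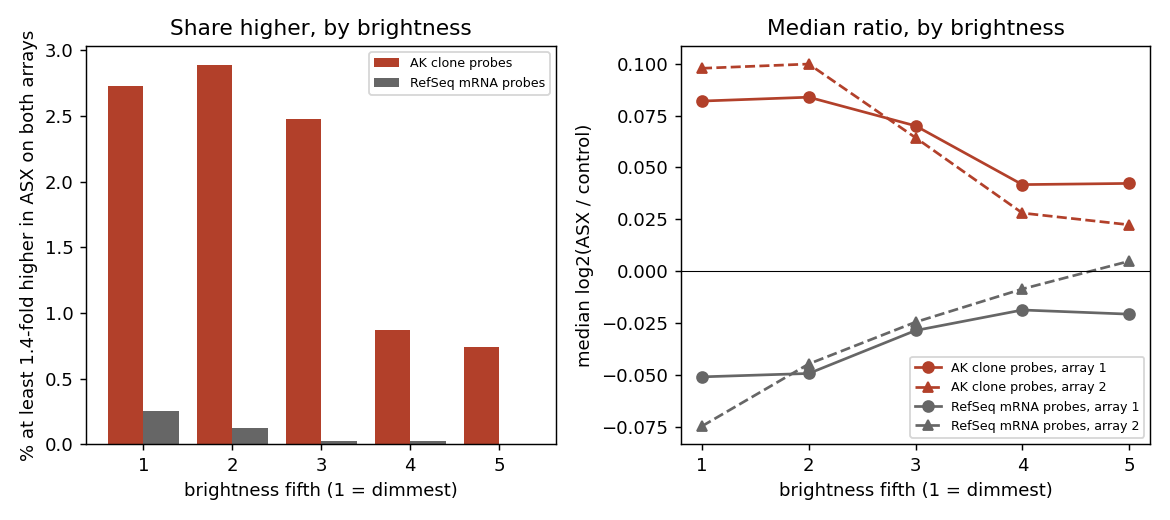
Left, percentage of probes at least 1.4-fold higher in ASX RNA on both arrays, and right, median log2(ASX / control) per array, by bin of mean brightness from dimmest (1) to brightest (5), for AK clone probes (red) and RefSeq mRNA probes (grey). AK shares run from 2.73% in the dimmest bin to 0.739% in the brightest, and AK medians lie above 0 on both arrays in every bin with processed signals; with spike-in scaling the median over all AK probes is -0.34.

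The share of clones differed with the accession number, which was not part of the rule beyond its prefix. Numbers were registered roughly in the order of submission, and blocks of 10000 were compared. From AK030000 to AK039999, 44 of 1102 measured probes (3.99%) were among the 147, from AK040000 to AK049999 35 of 1032 (3.39%), from AK050000 to AK059999 13 of 444 (2.93%), and from AK080000 to AK089999 26 of 890 (2.92%). Those 4 blocks, singled out after their values were seen, held 118 of the 147. Among the earliest numbers, below AK010000, it was 4 of 341 (1.17%), and from AK010000 to AK019999 6 of 681 (0.881%). Between these lay AK020000 to AK029999 with 6 of 299 (2.01%) and AK070000 to AK079999 with 7 of 299 (2.34%), while AK090000 to AK099999 had 1 of 29 (3.45%), above 3 of the 4 blocks. Above AK130000 the shares were at or below 0.699%, from 1 of 143 to 0 of 164.

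The 4 blocks had median log2 ratios of 0.11 to 0.14 on array 1 and 0.11 to 0.13 on array 2, against -0.0071 and -0.028 for numbers below AK010000. Spike-in scaling, a single shift, lowers every ratio by 0.39 on the log2 scale, and so turns these medians below 0. Brightness differed between blocks too, from 6.16 for AK080000 to AK089999 to 9.27 for AK120000 to AK129999 in the median, leaving aside blocks of 4 or fewer measured probes. Within the middle bin of brightness, 23 of 598 probes in the 4 blocks (3.85%) and 5 of 533 with other numbers (0.938%) were among the 147, with median mean log2 ratios of 0.10 and 0.010. That bin had the widest contrast. In the dimmest bin the share was 3.44% in the 4 blocks and 1.35% with other numbers, and in the next 3.92% in the 4 blocks and 1.32% with other numbers. In the 2 brightest bins the shares lay closer and rested on few clones, with 3 of 267 (1.12%) in the 4 blocks and 3 of 425 (0.706%) with other numbers, and then 1 of 101 (0.99%) in the 4 blocks and 2 of 305 (0.656%) with other numbers. Since the blocks were picked for their values, this is a description, and what distinguishes the clones of these numbers was not tested.

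**Figure D5:**
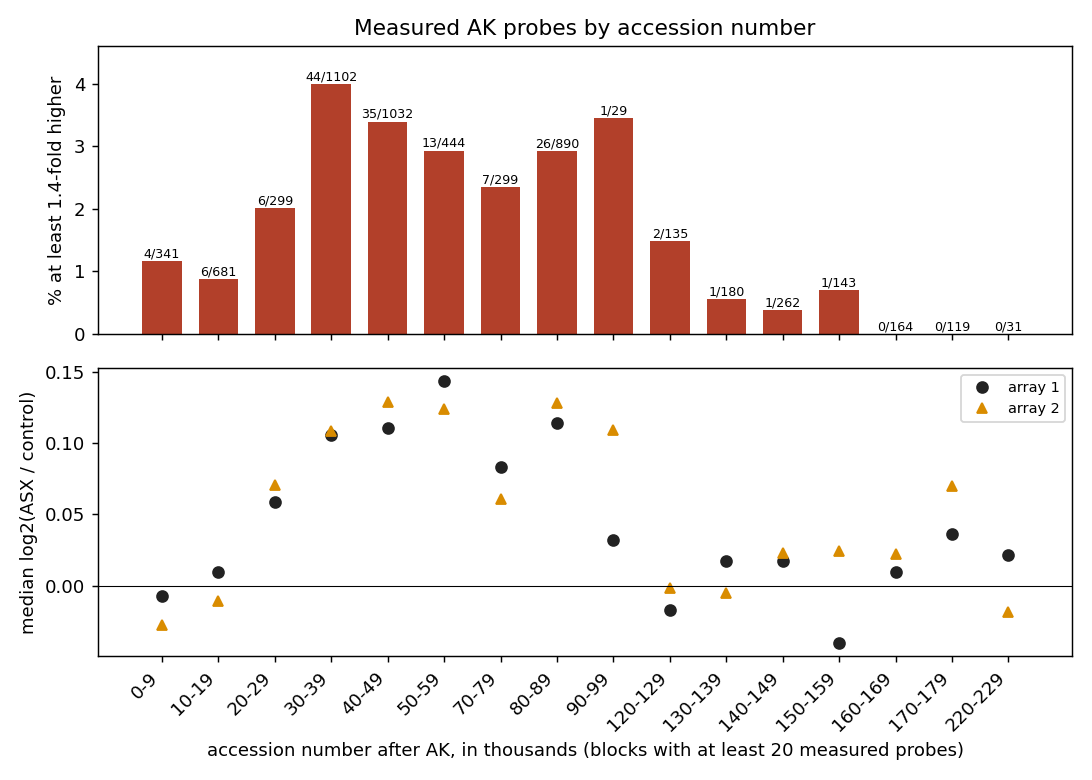
Measured AK probes in blocks of 10000 accession numbers, with, above, the percentage at least 1.4-fold higher in ASX RNA on both arrays (labels give clones over measured probes) and, below, the median log2(ASX / control) on array 1 (circles) and array 2 (triangles). The block from AK030000 to AK039999 has 44 of 1102 and medians of 0.11 on both arrays, and the block below AK010000 4 of 341 and medians below 0; spike-in scaling lowers every ratio by 0.39.

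A second probe for the same clone gives a further reading, though the rule was applied to that probe as well. Only 1 of the 147 clones, AK029196, was read by other probes, and it was read by 3 in all. Its probe in the set was dim, with 19.0 and 21.3 in ASX RNA, against 11.0 and 14.5 in control RNA, 1.73-fold and 1.47-fold. The others read 40.6 and 32.8, against 35.5 and 27.0 (1.14-fold and 1.22-fold), and 93.8 and 86.2, against 78.4 and 62.3 (1.20-fold and 1.38-fold). All 3 were above 1 on both arrays with processed signals, and only the first reached 1.4-fold. With normexp and loess the probe that read 40.6 and 32.8 was at log2 ratios of -0.013 and 0.11, below 1 on array 1. Of 5895 measured AK clones, 147 were in the set, and 236 had at least 2 measured probes. Only 1 of these 236 was in the set, a smaller share than the 2.39% of all measured AK probes. Over the 236, the mean log2 ratios of the brightest probe and the next had the same sign in 160 (67.8%). Their Pearson correlation across clones was 0.494.

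The measured spots next to each clone, 2 to 8 of them, had a median log2 ratio that was typically 0.022 on array 1 and -0.0037 on array 2. For 117 of the 147 clones the median of the neighbours was within 1.1-fold of 1 on both arrays. Over 4 bands of the array's rows, the share of measured AK probes among the 147 was 1.39% (20 of 1444), 3.15% (50 of 1585), 2.33% (38 of 1631) and 2.61% (39 of 1496). Over 4 bands of its columns it lay between 2.12% and 2.68%.

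The ratios of these mostly dim clones depended on how background was treated. With normexp background correction (offset 50) and loess in place of the processed signal, 146 of the 147 were still above 1 on both arrays, the exception being AK042887 with log2 ratios of -0.056 and 0.079. Their median log2 ratio was 0.43, and 27 were at least 1.4-fold higher on both arrays. These were 27 of 6156 measured AK probes, where 0.12% of all measured probes passed. With that setting 0 AK probes were lower by the same rule, where 0.0333% of all measured probes were. The offset adds a constant to both channels and so pulls dim ratios towards 1 by construction. AK038048, for example, was at log2 1.29 and 1.01 with processed signals and at 0.39 and 0.41 with normexp and loess. The bright AK090111 was at 0.88 and 0.62, and at 0.88 and 0.63.

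At 1.5-fold with normexp and loess, 9 of the 147 remained (9 of 6156 measured AK probes), where 0.0499% of all measured probes did. They were AK005009, AK048920, AK081617, AK036074, AK085108, AK053596, AK039631, AK090111 and AK080997. AK036074 read 280 and 264 in ASX RNA, against 162 and 149 in control RNA. AK085108 read 580 and 512, against 327 and 306, AK053596 read 291 and 265, against 185 and 143, and AK039631 read 899 and 657, against 505 and 406. Their mean folds were 1.75, 1.72, 1.71 and 1.70 with processed signals and 1.61, 1.64, 1.55 and 1.62 with normexp and loess. In each of the 4, both ASX readings lay above both control readings.

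Marker genes of the tissue and of its neighbours were read on the same scale. Of 10 hippocampal neuron genes 9 were measured, among them Prox1, Calb1 and Camk2a, and none passed the 1.4-fold rule in either direction. Their median log2 ratio was 0.04 on array 1 and 0.05 on array 2. In the anterior pituitary list, 3 of 6 measured genes were higher, where 0.602% of all measured probes were: Prl (prolactin) at 2.70 and 2.74, Gh (growth hormone) at 2.64 and 1.56, and Cga, the shared subunit of glycoprotein hormones, at 0.92 and 0.88. Pomc (0.40 and 0.58), Lhb (0.29 and -0.061) and Fshb (0.51 and -0.52) did not pass, the last 2 with opposite signs on the arrays. Tshb and Pou1f1 were not well above background. The summed signal of that list was 1996 and 1711 in ASX RNA, against 1346 and 1303 in control RNA. Most of it came from Pomc and Lhb, which did not pass. Pomc read 690 and 611 in ASX RNA, against 525 and 410 in control RNA. Lhb read 858 and 731, against 702 and 763.

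In the neutrophil and blood list, S100a8 (1.46 and 1.77) and S100a9 (1.58 and 1.83) were higher, while Hba-a1, Hbb-bt and Alas2 lay below 0 on both arrays without passing, and Ngp, Ltf and Camp were not well above background. Its summed signal was 6975 and 6093 in ASX RNA, against 10694 and 7623 in control RNA, and came mostly from Hbb-bt and Hba-a1. None of 8 meningeal genes passed, 6 were above 0 on both arrays, where 21.7% of all measured probes were, and their sum was 25858 and 21393 in ASX RNA, against 25679 and 19370 in control RNA. None of 6 astrocyte and oligodendrocyte genes passed, with median log2 ratios of 0.00071 and -0.11, and the sum was 117616 and 91355 in ASX RNA, against 116859 and 102404 in control RNA. Each of these sums follows mainly the brightest genes of its list. The part of these other cell types and tissues in the ratios of the 147 clones was not tested.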

How the data were processed

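Agilent Feature Extraction 11.0.1.1 made the scanner files, per the submitters' processing notes. The deposited processed intensity of each channel was background-subtracted and dye-normalized by the scanner software, and the deposited median intensity of a spot and its local background were not normalized. The deposited log10 ratio is processed Cy5 over Cy3, and the deposited p-value of it comes from the software's error model for a spot. The series' deposited value table holds the same log10 ratios, with a largest log2 difference of 1.66e-07, not turned for the dye swap. The other deposited columns used are 0 or 1 calls of the software.

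Each array's ratio was put as ASX over control on the log2 scale, with the mean taken over a probe's spots (Python 3.11.15, pandas 2.3.3). As an alternative, limma 3.58.1 in R 4.3.3 applied normexp (offset 50) and loess to the median signals, with 1639 control features of 45018 at weight 0. A single replicate leaves no residual degrees of freedom, so no test was run. The counting was tested on simulated data with 2-fold changes and equal noise at every brightness. That simulation does not bear on calls near 1.4-fold in dim spots. RefSeq accessions of assembly GRCm38.p6 named 23374 probes, and a marker gene took its brightest measured probe. Coordinates are left out because the array's design uses a different genome build.

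Clones were named by rule: the 12 largest mean ratios, the 3 brightest, the 3 largest and 3 smallest differences between arrays, 3 on either side of the threshold, clones with several probes, and up to 5 lower ones. The clones at least 1.5-fold higher with normexp and loess and those at least 2-fold were named after their values were seen. The clones and lists were chosen with earlier results of these data known. The result of 1 marker list is not reported here.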

Additional observations from a re-analysis of the deposited data

How the results depend on the processing

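Among AK probes, the processed signal gave 147 higher, 5 lower and 56 in the dye direction, and the 147 had a median log2 ratio of 0.65. Centring each array on its median, the deposited value table and the median over spots kept each of these 3 counts within 1.5-fold; with centring 153 were higher, 143 of them among the 147. Normexp with an offset of 50 and loess gave 27 higher, 0 lower and 10 in the dye direction, with a median of 0.43 for the 147. Offsets of 16 and 0, added after the data were seen, gave 62 and 97 higher (58 and 86 of them among the 147), 0 and 3 lower, 12 and 22 in the dye direction, and medians of 0.51 and 0.57. A larger offset thus went with fewer calls. Scaling on 10 spike-in RNAs lowered all ratios by 0.39 and gave 7 higher, 412 lower and 28 in the dye direction, with a median of 0.25; RefSeq mRNA probes then had 4 higher and 1749 lower. Without a brightness filter there were 286, 42 and 963, and among probes brighter than the median 23, 0 and 0. A threshold of 1.5-fold gave 57, 0 and 31, and one of 1.3-fold 305, 16 and 109. Single arrays gave 536 to 566 higher and 114 to 129 lower, since 1 array is asked in place of 2, and medians of 0.60 to 0.65; a dye direction cannot be read from 1 array. Signals without dye normalization gave a median of 0.35, where all measured probes had -0.39. Causes other than those the settings build in were not tested. No paired analysis was possible because both arrays carry the same pair of RNA samples. Signals close to local background limit the dim clones.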

Other observations

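Some AK clones stood well above background in just one of the RNAs and so fell outside the rule. For the ASX RNA on both arrays, and for the control RNA on neither, this held for 45 of 10713 AK probes (0.42%), and the other way round for 8 (0.0747%). Among RefSeq mRNA probes it held for 8 of 24124 for the ASX RNA alone (0.0332%) and for 15 for the control RNA alone (0.0622%). Such a clone has only a bound in the dim RNA, and no fold is given. A further 3182 AK probes (29.7%) were well above background in none of the 4 readings.

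Beside the AK clones, 34 other measured probes were at least 1.4-fold higher in ASX RNA on both arrays. TC and NAP consensus sequences made up 11 of them, of which TC1605825 had log2 ratios of 1.05 and 1.04, and NAP042151-1 1.05 and 0.78. Named genes other than those of the marker lists included Ahnak, a large scaffold protein gene, at 1.05 and 0.65, Prf1, the perforin gene of cytotoxic lymphocytes, at 0.93 and 0.64, and Slc4a7, a sodium bicarbonate cotransporter gene, at 0.55 and 0.56. The genes and sequences of this paragraph were chosen after their values were seen.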
